A study of Caenorhabditis elegans with 4 samples.

Results

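The members described here are the MML-1 peaks whose summits lay in the central part of chromosomes II, III, IV and V of Caenorhabditis elegans, the middle 1 of 3 equal lengths of each chromosome. A peak was counted as central when the authors' summit position on the ce10 build fell at 5.09 to 10.19 Mb on II, 4.59 to 9.19 Mb on III, 5.83 to 11.66 Mb on IV or 6.97 to 13.95 Mb on V, bounds included. This gave 176 of the 651 nuclear peaks of replicate A and 209 of the 742 of replicate B, so 385 of 1393 peaks in all. The rest of the same 4 chromosomes, called the outer parts below, held 235 peaks of A and 268 of B. Chromosomes I and X are not described here.

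The peaks come from chromatin immunoprecipitation and sequencing (ChIP-seq) with an antibody to MML-1 in whole wild type larvae at the L3 stage, grown synchronously at 20 °C for 36 h after hatching. Both ChIP samples, replicates A and B, carry the same genotype, stage and treatment, and 2 input DNA samples of the same kind complete the series. For all samples the labels give fixation in 2% paraformaldehyde for 30 min and 2.5 mg of protein. Peaks were called by the authors in each ChIP sample against 1 control. Whole animals were used, so a peak can come from any tissue, and the labels do not say whether the replicates were separate cultures.

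MML-1 belongs to the Mondo family of basic helix-loop-helix leucine zipper transcription factors, the family of mammalian MondoA and ChREBP. Its partner is MXL-2, a relative of Max, and such dimers bind E-box elements in DNA. In worms the pair is known for roles in metabolism, longevity and cell migration. The autosomes of this worm have gene-rich centres, where many housekeeping genes lie and recombination is rare, and arms with more repeats and more recombination. Gene content was not measured here, since no annotation of ce10 was used, and the peaks are therefore given by position only.

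Replicate A rested on 2694061 ChIP tags kept at 1 tag per position and strand, and replicate B on 2107570, against 15399728 and 27929584 control tags. The kept ChIP tags were 12.8% of 21033213 in A and 6.92% of 30475457 in B, whereas 87.6% and 80.6% of the control tags were kept. Every pileup, fold and overlap below rests on this small kept share. The narrowest peaks, 81 bp in A and 72 bp in B, equal the fragment length that the caller modelled in each. Tags were 75 bp long, so the modelled length was shorter than a tag in B and little longer in A. Both ChIP samples form 1 group, and peaks of 1 sample are not replicates, so no test across samples could be made for any comparison below. Intervals are 95% intervals for counting error only, and neighbouring peaks are not independent, which makes them too narrow.

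Peaks lay more densely in the centres than in the outer parts. Replicate A had 7.82 peaks per Mb in the centres (exact Poisson interval 6.71 to 9.06) and 5.23 in the outer parts (4.58 to 5.94). In replicate B the densities were 9.28 (8.07 to 10.6) and 5.96 (5.27 to 6.72). The ratio of centre to outer density was 1.50 in A (exact interval 1.22 to 1.83) and 1.56 in B (1.29 to 1.87). With each run of neighbouring peaks counted once, as defined below, the ratio was 1.53 in A (1.19 to 1.96) and 1.51 in B (1.16 to 1.94). Even in the centres, the peaks covered little DNA, 0.172% of the length in A and 0.175% in B, against 0.0982% and 0.111% in the outer parts.

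The chromosomes differed in how far centre and outer parts stood apart. Chromosome III had the largest ratio in both replicates, 2.60 in A (interval 1.61 to 4.23) and 2.38 in B (1.55 to 3.67). Its 43 central peaks of replicate A gave 9.35 per Mb, and its 50 of replicate B gave 10.9 per Mb. On chromosome IV the ratio was 1.19 in A (0.800 to 1.75) and 1.65 in B (1.12 to 2.42), from 44 and 52 central peaks. With runs of peaks counted once, however, IV had 1.12 in A and 1.05 in B, so its ratio in replicate B moved with how the peaks of a run were counted. Chromosome V had 1.38 (0.959 to 1.98) and 1.32 (0.922 to 1.87), from 54 and 56 central peaks. For chromosome II, with 35 and 51 central peaks, the values were 1.40 (0.880 to 2.20) and 1.31 (0.898 to 1.88). The intervals of II and V included 1 in both replicates, and that of IV did so in A. With runs counted once, the interval of IV included 1 in B as well (0.588 to 1.82). By that count II had 1.79 in A (1.01 to 3.15) and 1.38 in B (0.813 to 2.32), and V had 1.26 (0.779 to 2.02) and 1.63 (1.01 to 2.60), so the intervals of II in A and of V in B then lay just above 1.

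**Figure D1:**
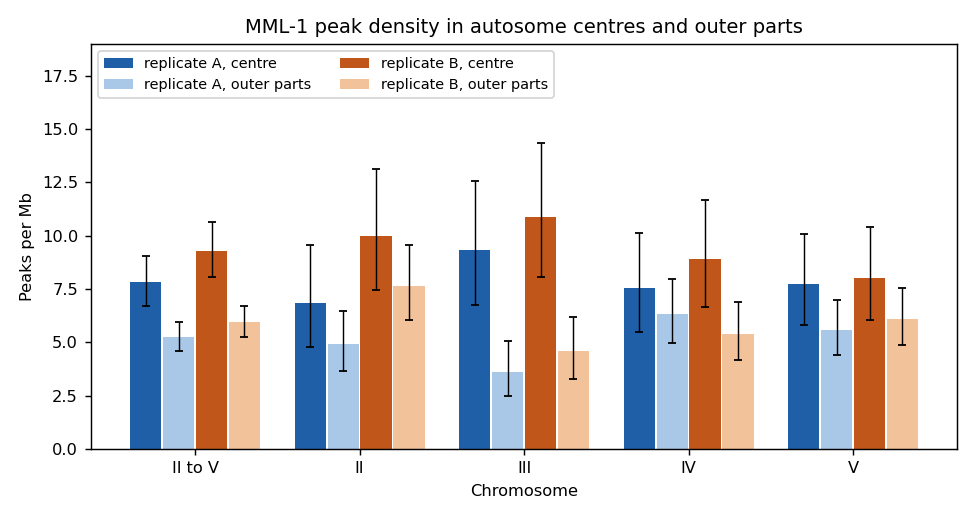
Peaks per Mb in the centre (dark bars) and the outer parts (pale bars) of chromosomes II to V together and of each one, for replicate A (blue) and replicate B (orange). Bars are densities and error bars exact Poisson 95% intervals; the widest separation is on chromosome III, at 9.35 against 3.59 per Mb in A and 10.9 against 4.57 in B.

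The outer parts were themselves uneven. On chromosome II the left outer part had 1.77 peaks per Mb in A and 3.54 in B, whereas the right outer part had 8.06 and 11.8, above the centre at 6.86 and 10.0. Chromosome III was lower on both sides, with 3.49 and 3.70 per Mb on the left and right in A and 5.23 and 3.92 in B. On chromosome V the left part, at 6.89 and 7.89 per Mb, was near the centre at 7.74 and 8.02, and the right part had 4.30 in each replicate. A centre denser than both of its flanks was found in both replicates on III, IV and V, and not on II. On IV in A the left part, at 7.38 per Mb, nevertheless came close to the centre at 7.55.

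Within the centres the peaks were spread over most of the DNA, with some crowded places. In windows of 500 kb, all 10 full windows of chromosome II and all 9 of III held at least 1 peak in each replicate. Chromosome IV had 1 empty window of 11 in A and 3 in B, and V had 2 empty windows of 13 in A and none in B. The fullest window of IV, at 8330000 to 8829999, held 11 peaks in A (25% of the chromosome's central peaks) and 17 in B (32.7%). On III the fullest window was 7090000 to 7589999 in both replicates, with 7 and 10 peaks. That of V was 12470000 to 12969999 in both, with 9 and 12 peaks. Chromosome II had different fullest windows, 7090000 to 7589999 in A with 9 peaks and 8090000 to 8589999 in B with 10.

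The centres also held long stretches without a peak, most of them not next to the fullest windows. The longest gap of chromosome IV ran from 7320002 to 8526172 in B (1206 kb) and from 7270527 to 8028353 in A (758 kb). In B it ended at the first summit of the 12.4-kb domain described below. Chromosome V had a gap of 1196 kb in A, from 9340573 to 10536339, and one of 716 kb in B, from 9731282 to 10446829, inside the same stretch. On III the gap was 516 kb in A and 774 kb in B, ending at 8371018 and 8371056. On II, 700 kb without a peak followed 7777425 in A, and 541 kb followed 6347682 in B.

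Neighbouring summits were either close together or far apart. The median distance between neighbouring central summits was 48.8 kb in A, with a middle 50% of 1.91 to 178 kb. In B it was 9.47 kb, with a middle 50% of 0.885 to 149 kb. Of 172 distances in A, 59 (34.3%) were at most 5000 bp, 16 (9.30%) lay between 5000 bp and 30 kb and 97 (56.4%) were longer. Of 205 in B, 99 (48.3%), 13 (6.34%) and 93 (45.4%) fell in these ranges. Few distances lay in the middle range in either replicate, though the share varied by chromosome. It ran from 2.33% (IV) to 16.7% (III) in A and from 3.92% (IV) to 10.9% (V) in B. The median of B depended on which peaks were counted, and was 18.9 kb with a fold of at least 4, 41.4 kb in the upper 50% of peaks by −log10 q and 16.6 kb without high-background peaks, defined below. That of A was 63.0, 70.1 and 51.3 kb under the same choices. The closest summits were 181 bp apart in A and 138 bp apart in B.

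The outer parts showed the same form of spacing. Their median distances were 56.1 kb in A and 14.3 kb in B, and 36.1% and 46.9% of distances were at most 5000 bp. Distances of at most 1000 bp made up 15.1% in the centres against 20.3% in the outer parts in A, and 27.8% against 31.5% in B. The longest gaps were shorter in the centres, 1196 kb in A and 1206 kb in B, against 2522 and 2026 kb. By chromosome, the central medians ran from 36.3 kb (V) to 55.8 kb (II) in A and from 1.64 kb (IV) to 37.2 kb (V) in B.

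**Figure D2:**
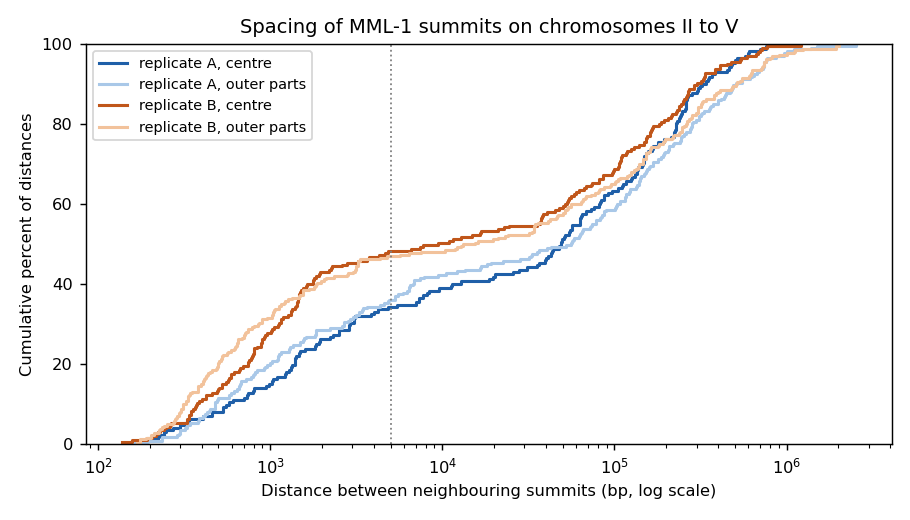
Cumulative percent of distances between neighbouring summits of 1 replicate (bp, log scale) for replicates A (blue) and B (orange), in the centres (dark) and outer parts (pale); the dotted line marks 5000 bp. All 4 curves are nearly flat between 5000 bp and 30 kb, where 5.38 to 10.1% of distances lie, and at 5000 bp the central curves stand at 34.3% in A and 48.3% in B.

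A multi-peak domain is a run of at least 2 peaks of 1 replicate whose neighbouring summits lie at most 5000 bp apart. In the centres such domains held 91 of the 176 peaks of A, 51.7% (Wilson interval 44.4 to 59.0%), beside 53.9% of all its nuclear peaks. In B they held 143 of 209, 68.4% (61.8 to 74.3%), beside 66.4% of all its nuclear peaks. The outer parts had 53.6% and 66.4%. The difference of centre minus outer was -1.91 percentage points in A (Newcombe interval -11.6 to 7.76) and 2.00 in B (-6.51 to 10.3). Central shares were thus near the background of all peaks in both replicates, and no domain crossed a bound of the centres.

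The peaks of A formed 32 central domains and those of B formed 44, of which 8 and 15 had at least 4 peaks. By chromosome, the share of peaks in domains ran from 42.9% (II) to 61.1% (V) in A and from 60.7% (V) to 76.9% (IV) in B. Chromosome V was thus highest in A and lowest in B. The share on IV stood above that of its outer parts by 19.8 points in B (2.41 to 35.2) and by 4.55 points in A (-13.7 to 22.2). Several domains rich in peaks of replicate B lay there, as given below.

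Central domains of several peaks were found again in the other replicate more often than single peaks were. In A, 30 of 85 single peaks (35.3%, 26.0 to 45.9%) overlapped a peak of B, and all 8 domains of at least 4 peaks held such a peak. Of the 24 domains of 2 or 3 peaks, 21 (87.5%, 69.0 to 95.7%) did. In B the counts were 25 of 66 single peaks (37.9%, 27.1 to 49.9%), 20 of 29 domains of 2 or 3 peaks (69.0%, 50.8 to 82.7%) and 13 of 15 larger ones (86.7%, 62.1 to 96.3%). A domain has more peaks with which to overlap, and counted per peak, 70.3% of peaks in domains were shared in A and 49.0% in B. The outer parts showed the same order, so it is not particular to the centres. There, 40.4% of single peaks, 76.5% of domains of 2 or 3 peaks and 100% of larger ones held a shared peak in A. In B the outer values were 38.9, 76.9 and 82.4%. Per peak in domains, the outer shares were 64.3% in A and 50.6% in B.

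To set the domains of both replicates side by side, summits of A and B were pooled and linked at the same 5000 bp. A joint domain needed at least 2 pooled summits, so 1 peak of A beside 1 of B counted, and a lone peak did not. A high count with both replicates is thus partly built into the definition. Of 75 such joint domains in the centres, 62 held peaks of both replicates, 10 only peaks of B and 3 only peaks of A. In the outer parts 84 of 102 held peaks of both. Of the central joint domains, 25 had at least 2 peaks of each replicate and 4 had at least 4 of each. The 4 lay 1 on each chromosome, and their members are described next.

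The joint domain with the most peaks lay on chromosome IV at 8525876 to 8538230 and spanned 12.4 kb, with 7 peaks in each replicate. Pileup, the number of tags over a summit, was 40, 34, 24, 32, 14, 19 and 17 in A from left to right, and 26, 20, 14, 14, 25, 14 and 12 in B. The fold, the authors' ratio of pileup to local control background with 1 added to both, ran from 4.00 to 9.37 in A and from 4.81 to 9.51 in B. Of these, 6 peaks of each replicate were shared, and the tallest peak of both replicates was the first. The last peak of A and the fourth of B had no partner.

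On chromosome V, 6 peaks of each replicate lay within 3.69 kb at 12634758 to 12638444, the tightest of the 4. Its pileups were 25, 22, 29, 34, 26 and 21 in A and 18, 14, 16, 21, 11 and 14 in B. In each replicate 5 of the 6 peaks were shared, and the fourth was tallest in both. Summits were a median of 557 bp apart in both replicates, and the peaks covered 45.6% of the span in A and 26.4% in B.

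The domain of chromosome III, at 6895166 to 6904065, held 5 peaks of A and 6 of B over 8.90 kb. A had pileups of 24, 51, 31, 13 and 26, and B had 16, 31, 18, 12, 13 and 11. Its second peak, the tallest in both, had folds of 13.7 and 10.5. At the right end a single peak of A, 713 bp wide, overlapped 3 peaks of B of 72 to 107 bp, so that the same place counted as 1 peak in A and 3 in B.

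On chromosome II the domain at 8477063 to 8481510 had 4 peaks in each replicate, all shared, over 4.45 kb. It held the widest central peak of each replicate, 1920 bp in A (8477487 to 8479406) and 1791 bp in B (8477063 to 8478853). These overlapped by 1367 bp, but their summits were 1058 bp apart, the largest distance among shared central sites. The widest peak had a pileup of 27 and a fold of 6.75 in A, and of 35 and 13.7 in B. Another 2 peaks of A (108 and 101 bp) lay under the wide peak of B, and 2 of B (208 and 109 bp) met the wide peak of A. Peaks covered 60.8% of this span in A and 50.3% in B.

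**Figure D3:**
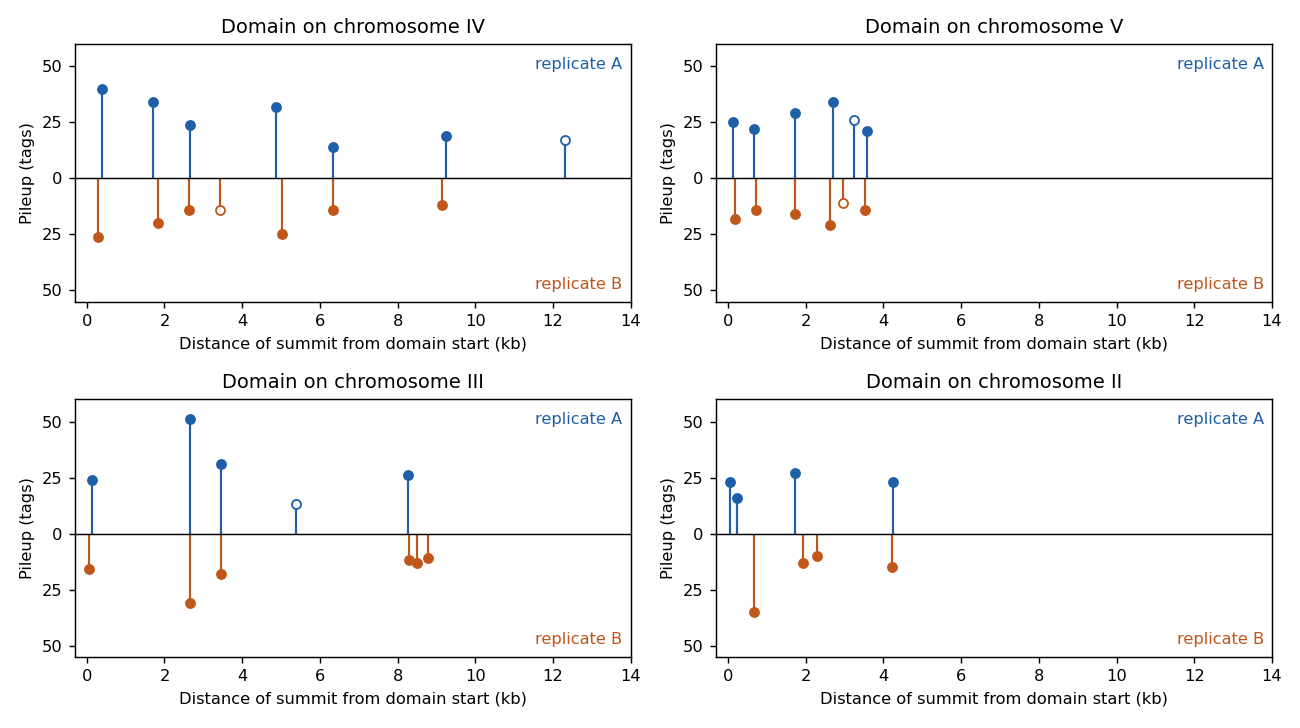
Pileup (tags) of each peak in the 4 central joint domains with at least 4 peaks in each replicate, against the distance of its summit from the start of the domain (kb), with replicate A upward and replicate B downward from 0. Filled points are peaks that overlap a peak of the other replicate and open points are those that do not; the domain of IV is the longest at 12.4 kb and that of V the shortest at 3.69 kb.

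Other joint domains were lopsided, and those named in this paragraph were chosen after their values were seen. On IV at 8573548 to 8580986, B had 9 peaks and A had 2. A's 2 peaks, with pileups of 29 and 48, marked the ends of the domain and were shared, and the 7 unshared peaks of B between them had pileups of 12 to 22. On IV at 11070938 to 11075372, B had 7 peaks and A had 2, both shared. Its first peak had a pileup of 33 in A and 53 in B but folds of 2.83 and 15.8, the largest disagreement in fold among the central sites. On II at 8287658 to 8292601 there were 5 peaks of B, with folds of 3.93 to 7.79, and none of A. The local control at A's peaks in these IV domains was 2.92 to 5.38 times the lowest control of that replicate, and its part in the imbalance was not tested. In the other direction, A had 5 peaks and B 2 on V at 9094141 to 9097763, where B's 2 peaks were 621 and 770 bp wide.

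Under the rule of 1 bp, central peaks overlapped the other replicate about as often as other peaks. In A, 94 of 176 (53.4%, Wilson interval 46.0 to 60.6%) shared at least 1 bp with a peak of B, beside 54.8% of all nuclear peaks of A. In B, 95 of 209 (45.5%, 38.8 to 52.2%) did, beside 49.1% of all nuclear peaks. In the outer parts the shares were 53.2% and 46.6%. The difference of centre minus outer was 0.218 points in A (Newcombe interval -9.46 to 9.85) and -1.19 points in B (-10.1 to 7.78). The intervals leave room for a difference of several points in either direction. With summits within 100 bp as the rule, the central share was the lower one in both replicates. The difference was then -6.90 points in A and -7.33 in B, for which no intervals were computed.

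By chromosome the central shares were close together in A, from 51.2% (III) to 56.8% (IV). In B they ran from 37.3% (II, 19 of 51, interval 25.3 to 51.0%) to 50% (IV, 26 of 52, 36.9 to 63.1%), and these intervals overlap. Chromosome III was the only one of the 4 with a central share above that of its outer parts in both replicates, 51.2 against 42.4% and 46 against 33.3%. The interval of that difference included 0 in each (-13.4 to 29.5 and -7.29 to 31.0 points).

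Strong peaks were shared more often than weak ones in the centres. With all nuclear peaks of a replicate divided into 4 equal parts by −log10 q, 36 of 37 central peaks of the top part of A were shared (97.3%, 86.2 to 99.5%). The next parts down had 26 of 41 (63.4%), 17 of 46 (37.0%) and 15 of 52 (28.8%, 18.3 to 42.3%). In B the shares were 29 of 43 (67.4%, 52.5 to 79.5%), 32 of 54 (59.3%), 23 of 63 (36.5%) and 11 of 49 (22.4%, 13.0 to 35.9%). The same parts of the outer parts had 93.3, 60, 33.9 and 26.2% in A and 76.5, 53.6, 31.7 and 23.5% in B. The top part made up 21.0% of central peaks in A and 20.6% in B, against 25.5 and 25.4% of peaks in the outer parts.

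Shared central peaks were wider and taller than unshared ones. Their median width was 232.5 bp in A and 194 bp in B, against 110.5 and 104.5 bp, and their median pileup was 22 and 16 tags against 14 and 13. With an overlap of 1 bp as the rule, a wider peak is more easily shared. Shared peaks of the outer parts were likewise wider, at 192 and 189 bp against 119 and 110 bp. Their median pileups were 25 and 17 tags, against 14 and 13 for unshared outer peaks. Many unshared central peaks lay more than 5000 bp from any summit of the other replicate, 56 (68.3%) in A and 65 (57.0%) in B. These distances were not computed for the outer parts, so they cannot be called particular to the centres. Of 82 in A, 7 (8.54%) had a summit of B within 500 bp and 26 (31.7%, 22.6 to 42.4%) within 5000 bp. Of 114 in B, 13 (11.4%) had a summit of A within 500 bp and 49 (43.0%, 34.3 to 52.2%) within 5000 bp. Unshared peaks with no other summit of either replicate within 5000 bp numbered 50 in A and 38 in B.

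Among all unshared central peaks, those described next are the 2 with the highest −log10 q in each replicate. On V at 12637802 to 12638048, inside the domain described above, A had a pileup of 26, a fold of 6.70 and a −log10 q of 12.8. A's next, on V at 10536277 to 10536427, had a pileup of 21 and a fold of 6.38, and the nearest other summit of A lay 352226 bp away. In B the strongest lay on IV at 9048541 to 9048669, with a pileup of 40, a fold of 11.7 and a −log10 q of 30.5, as 1 of 4 peaks of B in a row where A had none. The next, on V at 10446778 to 10446888, had a pileup of 37 and a fold of 10.2. These 4 stand at the top of their lists, since the median −log10 q of all unshared central peaks was 3.77 in A and 4.50 in B. The local control under them was 1.30 and 1.05 times the lowest control of A, and 1.53 and 1.67 times that of B. Over the 4 peaks of B in a row on IV it ran from 1 to 2.50 times. The neighbouring peak of B in the domain on V had 2.50 times.

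The overlapping peaks made up 88 central sites, sets of connected peaks of both replicates, of which 80 joined 1 peak of each. Chromosome II had 16 (3.14 per Mb), III had 21 (4.57), IV had 25 (4.29) and V had 26 (3.72). In the outer parts there were 3.05, 1.52, 2.91 and 3.01 sites per Mb in the same order. In 44 of the 88 sites the narrower peak lay wholly within the wider one. Summits of the pair with the longest overlap lay 33 bp apart in the median site and within 100 bp in 64 (72.7%), against 81.8% of the 121 outer sites. Chromosome II had the lowest such share, 8 of 16 sites. In 53 sites both peaks belonged to a multi-peak domain of their own replicate.

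Across the 88 sites, pileup in A and B had a Spearman correlation of 0.71 and width one of 0.65, and the fold had 0.40. The 12 sites of high control background, defined below, were all high in the control of A, and some of them also in that of B. Without them the correlation of the fold was 0.60 and that of pileup 0.64. These are descriptions over sites that share the same 2 libraries. Pileup, which is not scaled to depth, was higher in A at 66 of the 88 sites, and A had more kept tags. The fold was higher in B at 49.

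The sites of highest fold, 5 per chromosome by the geometric mean of both replicates, show the range. On II, the first was 7528930 to 7529603, with pileups of 49 in A and 30 in B and folds of 12.1 and 11.8. The fourth site of that chromosome, 7528174 to 7528525, lay just to its left and had folds of 8.30 and 6.24. Second was the broad site at 8477063 to 8479427 described above. Next in rank, the third and the fifth, 8746547 to 8747734 and 9283989 to 9284446, had folds of 7.90 and 8.37, and of 5.32 and 8.27. Folds on II were alike in both replicates at the first and the third site, higher in B at the second and the fifth, and higher in A at the fourth.

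Chromosome III was led by 6897502 to 6898013, the tall second peak of its domain, with pileups of 51 and 31 and folds of 13.7 and 10.5. Its neighbour at 6898462 to 6898831 had pileups of 31 and 18 and folds of 9.28 and 6.93. The site at 8658109 to 8658556 had folds of 8.55 and 6.85, and that at 9051162 to 9051783 had 7.73 and 6.56. At these 4 the fold was higher in A. The exception was 7444381 to 7444590, with pileups of 27 and 31 but folds of 4.75 and 12.0, where the local control background was 2.09 times the lowest in A and 1.02 times in B.

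On chromosome IV, 6878912 to 6879274 had the highest mean fold of all central sites, with pileups of 56 and 28 and folds of 16.3 and 11.0. A second site to its right, 6881165 to 6881577, had pileups of 40 and 30 and folds of 9.88 and 11.8. The sites at 8525876 to 8526382 and 8530587 to 8530981 belong to the long domain of IV, with folds of 9.11 and 9.51, and of 9.37 and 8.32. The fifth, 11148837 to 11149339, had 8.23 and 8.37. At the first of these 5 sites A was clearly higher in fold, and at the other 4 the replicates lay closer together.

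Chromosome V was led by a lone site, 13212660 to 13212924, with summits 1 bp apart, pileups of 39 and 30 and folds of 11.0 and 11.1. No other summit of either replicate's own list lay within 5000 bp of it. The site at 9088659 to 9089192 had folds of 12.0 and 7.24 and was likewise single in both. Nearby, 9096709 to 9097763 and 9095463 to 9096083 had folds of 7.79 and 10.9, and of 9.56 and 8.53, and the replicates changed order between these neighbours. The fifth, 9340133 to 9340647, had pileups of 19 and 33 and folds of 5.99 and 12.9, with a peak 128 bp wide in A and 515 bp wide in B.

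**Figure D4:**
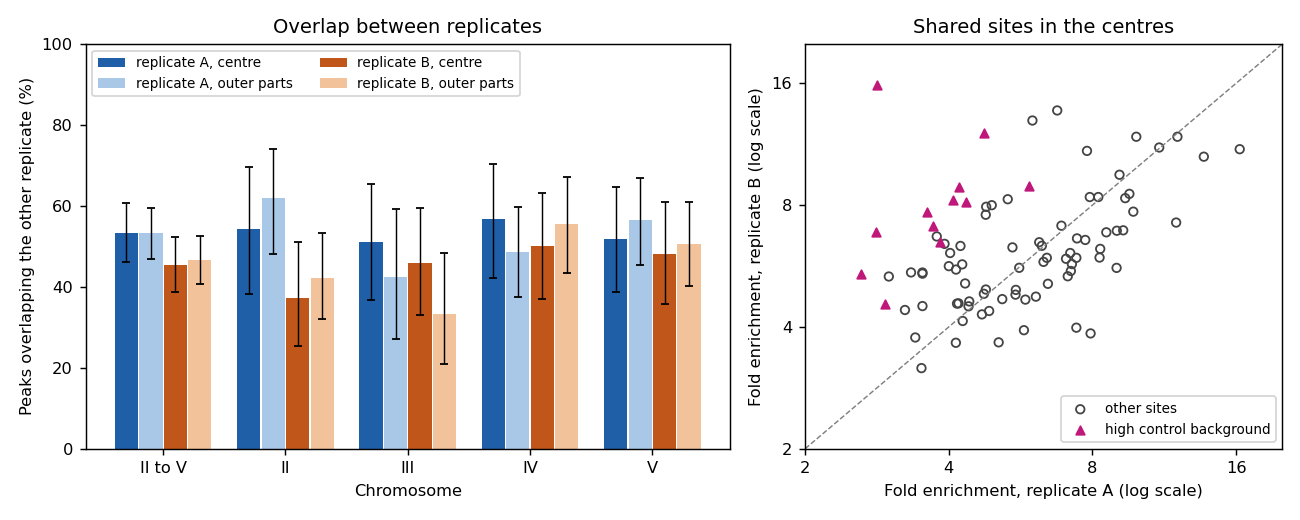
Left, percent of peaks that overlap a peak of the other replicate, with Wilson 95% intervals, in the centre (dark) and outer parts (pale) of chromosomes II to V together and of each, for replicates A (blue) and B (orange). Right, fold enrichment at the 88 shared central sites in A (x) and B (y), both on log scales, with the line of equality. The 12 sites of high control background (triangles) had a high control in A, and some of them in B as well. The control divides the fold, so this choice moves all of them to the left, and some of them downward too.

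Width differed little between centres and outer parts. The median central width was 148 bp in A and 128 bp in B, against 142 and 126 bp, and ratios of the medians were 1.04 and 1.02. Peaks of at least 500 bp made up 12 of 176 (6.82%) and 14 of 209 (6.70%) in the centres, against 4.26 and 4.48% in the outer parts. Chromosome II had 5 such peaks in A and 5 in B, III had 2 and 3, IV had 2 and 0, and V had 3 and 6. At the other end, 12 central peaks of A and 15 of B were exactly as narrow as the modelled fragment.

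Typical pileup was also alike, and the difference lay in the tallest peaks. Median central pileup was 16 tags in A and 14 in B, against 17 and 14 in the outer parts. Scaled to 1000000 kept tags, the central medians were 5.94 in A and 6.64 in B, so the order of the replicates turned with depth. The upper quartiles were 23 and 18 in the centres and 28.5 and 20 in the outer parts, and the maxima were 82 and 63 against 124 and 117. Chromosome IV had the highest central median in both replicates, 18 and 16.5 tags, while the other 3 had 15 to 16 in A and 13 to 14 in B. Median fold was 4.40 in A and 5.29 in B in the centres, and 4.59 and 5.33 in the outer parts.

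**Figure D5:**
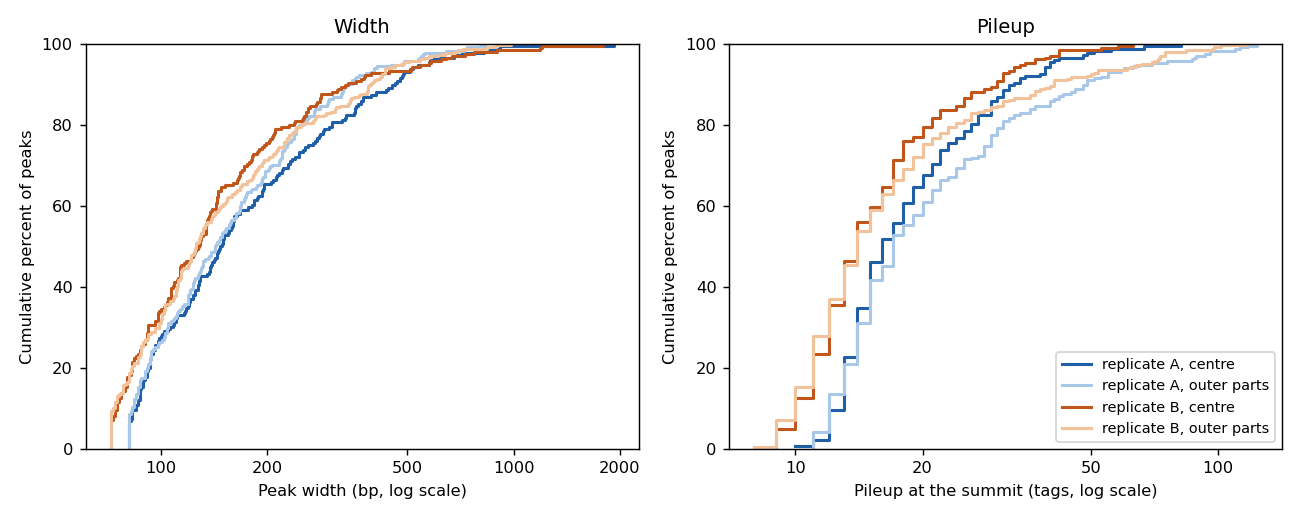
Cumulative percent of peaks by width (left, bp) and by pileup at the summit (right, tags), both on log scales, for replicates A (blue) and B (orange) in the centres (dark) and outer parts (pale). The width curves of centre and outer parts run close together, while the pileup curves of the centres end at 82 tags in A and 63 in B, and those of the outer parts at 124 and 117.

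Peaks over a high control were scarcer in the centres of the 4 chromosomes together, but not on IV. The local control under each summit was solved from the authors' fold and pileup, and a peak was called high background when it exceeded 2 times the lowest control of its replicate. This held for 12 of 176 central peaks of A (6.82%) and 47 of 235 outer peaks (20%), a difference of -13.2 points (Newcombe interval -19.5 to -6.58). In B it held for 14 of 209 (6.70%) and 42 of 268 (15.7%), a difference of -8.97 points (-14.5 to -3.24). By chromosome, A had none on II, 6 on III, 6 on IV and none on V, and B had 2, 4, 6 and 2. The difference was widest on V, at -26.9 points in A (-37.7 to -16.1) and -21.1 in B (-31.6 to -9.47). On II it was -16.0 points in A (-28.5 to -3.49) and -6.33 in B (-15.5 to 4.20), and on III it was -7.26 (-25.4 to 9.72) and -6.29 (-20.7 to 6.93). Chromosome IV had -1.23 points in A (-13.4 to 13.3) and 0.427 in B (-11.4 to 13.2).

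A peak over a high control needs more tags to be called, so high-background peaks are tall by construction. Their median pileup was 31.5 tags in the centres of each replicate, and 48 in A and 49.5 in B in the outer parts. Leaving them out lowers the tall end for that reason, and the quartiles that follow are a description only. Without them the upper quartile of pileup was 21.25 tags in the centres and 20 in the outer parts in A, and 17 in each in B. The ratio of centre to outer density was higher without them, 1.74 in A and 1.72 in B, with lower interval bounds of 1.40 and 1.42. That rise follows from the shares above, since a larger share of outer than of central peaks was left out. It is not a separate result. On V, where these shares differed most, the ratio was then 1.89 in A (1.28 to 2.80) and 1.69 in B (1.15 to 2.46). Both intervals then lay above 1, and the rise there is built in likewise. High-background peaks were shared at 12 of 12 in the centres of A but 6 of 14 in B, against 37 of 47 (78.7%) and 30 of 42 (71.4%) in the outer parts. The 12 central sites with such a peak all had it in A, and 6 of them also in B. Because the fold divides by the control, this choice of sites lowers the fold in A by construction, and at those 6 the fold in B as well. With that limit, their median fold was 3.77 in A and 7.91 in B, and their median pileup 31.5 and 33.5 tags. At the other 76 the medians of the fold were 5.89 and 5.84, and the fold was higher in A at 39 and in B at 37.

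The members next to the bounds had low to middling pileups. The nearest central summits lay 7.60 to 543 kb inside a bound, with pileups of 10 to 18 tags, and the nearest outer ones 27.7 to 737 kb outside it, with pileups of 9 to 70. The tallest of these outer peaks, on V with summits at 6942270 in A and 6942273 in B, had pileups of 70 and 45.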

How the data were processed

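The submitters' processing notes name Bowtie (without a version) and ce10. The file headers name MACS2 2.1.0.20151222, run by the authors on each replicate with 1 control and a q threshold of 0.05; which input served as which control is not stated there. In the deposited lists pileup is a signal, the tags over the summit with no scaling to depth, and fold is the authors' ratio of pileup to local control. The deposited −log10 q ranks peaks here, and the −log10 p-values were left aside. Each replicate's other deposited list, which has a score, was not used.

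Peaks were placed by summit, and mitochondrial ones were left out. Overlap, spacing, domains and sites were computed as the text defines them, with code tested on simulated lists. Lengths of the outer parts came from general knowledge of ce10. The regions named were, per chromosome, the 5 shared central sites of highest geometric mean fold, then all central joint domains with at least 4 peaks in each replicate, and per replicate the 2 strongest unshared peaks and the widest. Members and rules were chosen with earlier results of these data known. Intervals, at a confidence of 95%, are Wilson for shares, Newcombe for differences and exact for densities and their ratios. The code ran on Python 3.11.15 with matplotlib 3.10.9, scipy 1.17.1, pandas 2.3.3 and numpy 2.4.6.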

Additional observations from a re-analysis of the deposited data

How the results depend on the processing

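Values here are means of replicates A and B, and moves are set against the SD between them. For the spacing this SD, 27.8 kb, is nearly as large as the value, and no spacing below moved by more. The values listed for changed rules from the density ratio to the median fold each moved by more than their SD. The mean of the median spacings, 29.1 kb, was 41.0 kb with a fold of at least 4, 55.7 kb in the upper 50% of peaks by −log10 q and 33.9 kb without high-background peaks. The density ratio, 1.53 in all, was 1.38 in the upper 50% of peaks by −log10 q, 1.73 without high-background peaks and 1.72 with the middle 50% of each chromosome as centre. The rise without high-background peaks follows from their larger share in the outer parts. The central share of overlapping peaks, 49.4%, was 57.4% in the upper 50% by q, 29.8% with an overlap of at least 50% of both peaks and 34.0% with summits within 100 bp. Its difference from the outer parts, -0.485 points, was -1.56 with a fold of at least 4, -1.55 in the upper 50%, 2.97 without high-background peaks, -3.79 with the middle 50%, -2.12 with 50% overlap and -7.12 with summits within 100 bp. With a fold of at least 4 and in the upper 50%, which hold fewer and stronger peaks, median width was 155 and 212.5 bp and median pileup 16.5 and 21.75 tags, and in the upper 50% median fold was 6.38. Scaled to 1000000 kept ChIP tags, median pileup was 6.29 (5.94 in A, 6.64 in B). Leaving out either replicate gives the value of the other, which is no check of stability: a density ratio of 1.50 to 1.56, 51.7 to 68.4% of peaks in domains, a spacing of 9.47 to 48.8 kb, a width of 128 to 148 bp, a pileup of 14 to 16 tags and a fold of 4.40 to 5.29. The correlation of the fold without high-background sites, 0.60 against 0.40, was chosen after seeing the data. Those sites were all high in A's control, and some of them in B's too. The causes were not tested. No paired analysis was possible because no result compares ChIP with input samples. Distances to genes and E-boxes were not run.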
